A study of Mus musculus with 20 samples.

Results

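The MHC and antigen presentation genes of the mouse uterus were taken as every gene whose symbol begins with H2-, the prefix of the mouse MHC, together with B2m, Tap1, Tap2, Tapbp, Psmb8, Psmb9, Nlrc5, Ciita and Cd74. This rule gave 50 of the 45777 genes in the table, 41 by prefix and 9 by name. Of the 50, 30 were class I genes, 10 were class II genes, 9 were genes of the machinery that serves both classes, and 1, H2-Ke6, was a metabolic gene that lies in the same region. In 38 of them, TPM (the transcript abundance corrected for transcript length and scaled to a fixed total) was above 0 in all 20 libraries, and these 38 were tested.

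Uterine RNA came from 20 wild-type B6D2F1 females aged 8 to 12 weeks, in 4 groups (control, IF, PBMC, PBMC-hCG) of 5 mice and 5 libraries. All were plug-positive, and 1 uterine horn per mouse was collected at 18:00 on day 3.5, shortly before implantation. The IF (implantation failure) group had received 3 mg/kg RU486, an antagonist of the progesterone and glucocorticoid receptors, on the morning of that day, and so had the PBMC and PBMC-hCG groups, but not the control group. The PBMC and PBMC-hCG mice had also been given 50000 blood mononuclear cells per horn on day 1.5, which came from non-pregnant mice and had been cultured without hCG or with 5 IU/mL hCG. Whether these donors were pooled is not given in the sources used here. The cells were injected in culture medium under anesthesia, and none of the 4 groups was injected with medium alone. The cells and the injection therefore cannot be told apart against IF or control, and against control RU486 differs as well. The libraries are of whole tissue, so more cells of a type and more RNA per cell cannot be told apart, and RNA of injected cells that remained in the horn would be counted with that of the uterus. B6D2F1 mice carry a DBA/2 copy of the MHC beside a C57BL/6 copy, whereas the reads were aligned to the C57BL/6 genome mm10. How reads of the DBA/2 alleles were assigned was not tested.

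MHC class I molecules consist of a heavy chain and the light chain beta-2 microglobulin, encoded by B2m, and present peptides from inside the cell to CD8 T cells. The immunoproteasome subunits Psmb8 and Psmb9 help to cut these peptides, the transporter of Tap1 and Tap2 carries them into the endoplasmic reticulum, and tapasin, encoded by Tapbp, bridges the transporter to the waiting heavy chain. Class II molecules pair an alpha and a beta chain on dendritic cells, macrophages and B cells, are guided by the invariant chain Cd74, and present ingested antigen to CD4 T cells. Nlrc5 and Ciita are the transactivators of class I and class II genes, and interferon-gamma raises both pathways. In the uterus, these molecules are of interest because the embryo carries paternal antigens and uterine NK cells read class I.

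On the RefSeq annotation of GRCm38.p6, 46 of the 50 genes lay on chromosome 17, from Tapbp at chr17:33919478-33929290 to H2-M2 at chr17:37480851-37483554. Psmb9, Tap1, Psmb8 and Tap2 stood side by side within the class II region, between 34182030 and 34216321. H2-T24, H2-T23, H2-T22, H2-T-ps and H2-T10, class I genes of the T region, lay between 36003471 and 36121444. B2m was on chromosome 2, Nlrc5 on chromosome 8 and Ciita on chromosome 16.

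To show the control regions of class I and class II genes side by side, up to 200 bases before the start are given from RefSeq for H2-T22 and B2m, which encode a heavy chain and the light chain of class I, and for H2-Aa and H2-Eb1, an alpha and a beta chain of class II. The positions are chr17:36042748-36042942 on the minus strand for H2-T22, chr2:122147487-122147685 on the plus strand for B2m, chr17:34287824-34288023 on the minus strand for H2-Aa and chr17:34305667-34305866 on the plus strand for H2-Eb1. Capitals in H2-T22 and B2m mark a match to the core of the interferon-stimulated response element, which reads GAAA, any 2 bases and GAAA, on either strand. Capitals in H2-Aa and H2-Eb1 mark the Y box, CTGATTGG, which belongs to the motif group read by the Rfx, Creb and NF-Y factors.
H2-T22: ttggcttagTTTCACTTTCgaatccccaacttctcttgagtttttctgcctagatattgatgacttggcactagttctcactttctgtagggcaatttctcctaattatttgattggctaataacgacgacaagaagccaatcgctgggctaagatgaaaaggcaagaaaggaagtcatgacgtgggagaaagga
B2m: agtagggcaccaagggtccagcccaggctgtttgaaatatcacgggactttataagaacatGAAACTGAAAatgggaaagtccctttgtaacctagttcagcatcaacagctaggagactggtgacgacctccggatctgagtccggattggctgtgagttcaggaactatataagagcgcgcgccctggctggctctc
H2-Aa: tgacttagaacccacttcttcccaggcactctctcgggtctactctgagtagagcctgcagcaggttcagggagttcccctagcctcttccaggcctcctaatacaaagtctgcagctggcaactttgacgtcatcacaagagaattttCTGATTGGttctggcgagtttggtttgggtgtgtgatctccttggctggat
H2-Eb1: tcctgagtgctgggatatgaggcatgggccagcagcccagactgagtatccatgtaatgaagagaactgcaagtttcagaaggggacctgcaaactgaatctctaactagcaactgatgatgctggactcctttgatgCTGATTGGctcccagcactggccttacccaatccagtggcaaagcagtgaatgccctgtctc

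The 2 motifs, and the class I kappaB site, were searched on both strands in the 250 bases before the first listed start of each gene. The interferon-stimulated core was found in 3.04% of the 27025 promoters of the genome, in 2 of 23 class I promoters (H2-T22 and H2-T23), in B2m and in 0 of 8 class II promoters. The Y box was found in 4.07% of all promoters, in 13 of 23 class I promoters, in 4 of 8 class II promoters (H2-Aa, H2-Eb1, H2-Eb2 and H2-Oa) and in Tap1 and Psmb9. Among class I genes above 0 TPM in all libraries, 5 of 12 promoters held it. The class I kappaB site was in 0.0222% of all promoters and in 3 of 23 class I promoters, those of H2-K1, H2-D1 and H2-Q6. In no member did matches of different motifs overlap. A match is a description of these letters and not of a bound site.

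Levels differed by several orders of magnitude among the genes. B2m had the highest mean over the 20 mice, at 1543 TPM, followed by the classical class I heavy chain H2-D1 at 813 TPM, Cd74 at 621 TPM, the second classical heavy chain H2-K1 at 569 TPM, and the class II chains H2-Aa, H2-Ab1 and H2-Eb1 at 351, 312 and 208 TPM. The nonclassical heavy chain H2-T23, known as Qa-1 and recognised by inhibitory receptors of NK cells, had a mean of 195 TPM. Summed class I H2 genes took between 0.15% and 0.318% of a library, and summed class II H2 genes between 0.0736% and 0.163%. Of the 12 genes that were not tested, 8 class I genes of the M region (H2-M1, H2-M10.2, H2-M10.3, H2-M10.4, H2-M10.5, H2-M10.5-ps1, H2-M10.6 and H2-M11) were listed at 0 in every library. The remaining 4 were above 0 in some libraries, namely H2-M9 in 7 with a highest value of 0.364 TPM, H2-M2 in 7 with 0.422 TPM, H2-T3 in 4 with 0.0552 TPM and H2-M10.1 in 1 with 0.0666 TPM. H2-Ea-ps, the class II alpha chain gene that is a pseudogene in the C57BL/6 reference, had a mean of 112 TPM.

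Single mice stood apart, and each result is read with them in view. Of the 38 tested genes, control replicate 2 had the highest value of all 20 mice in 18, which were 8 class I genes, 7 class II genes, 2 machinery genes and H2-Ke6. Control replicates 5 and 4 had the lowest values in 14 and 10 genes, so the control group held both ends of the range. PBMC replicate 4 had the highest value in 5 genes, all of the machinery, and PBMC-hCG replicate 4 in 6. Over all genes, mice of a group correlated at 0.961 to 0.992 on the log2 scale. Library totals were 999988 to 999999 TPM, the genes above 0 TPM numbered 22702 to 24097, and the number of reads behind a value is unknown. No sequencing batch or date is named in the sources used here.

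Compared with the control group, the PBMC-hCG group had more transcripts of 12 class I pathway genes, led by Tap1, H2-T23 and H2-T24, and no class II gene was called. The groups compared differed in RU486, injection and cells at once, which cannot be told apart. These 12 of the 38 genes were higher at an adjusted p-value under 0.05 and none was lower, in limma's two-sided test on log2(TPM + 0.1) with Benjamini-Hochberg adjustment over all 18706 tested genes, where 20.2% of all genes were higher and 11.6% lower. They were 6 of 7 class I machinery genes (Tap1, Tap2, Tapbp, Psmb8, Psmb9 and Nlrc5) and 6 of 18 class I H2 genes (H2-Q4, H2-T-ps, H2-T10, H2-T22, H2-T23 and H2-T24). None of the 10 class II genes was called. Median log2 fold changes were 0.45 for class I machinery, 0.20 for class I H2 genes, 0.05 for class II and 0.08 for all tested genes. In 5 of the 38 genes, all of the class I machinery, every PBMC-hCG mouse lay above every control mouse. For the 38 genes this is about the share among all genes, 13.2%. Under the study's criteria for a differentially expressed gene (DEG), that is at least a 2-fold difference in either direction with an unadjusted p-value under 0.05, H2-T24 was the single DEG, and 4.74% of all genes met them. Leaving out single mice gave between 8 and 16 called genes of the 38. Of all 18706 genes, 5941 were called with every mouse in. There were 8 calls without control replicate 4, where 5113 of all genes were called, and 16 without control replicate 2, where 7513 were. Without control replicate 2, log2 fold changes were 0.38 for H2-K1, 0.39 for H2-D1, 0.21 for H2-Aa, 0.12 for H2-Ab1 and 0.22 for H2-Eb1. With it they were 0.19, 0.20, 0.05, -0.03 and 0.05.

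Compared with the IF group, which had received the same RU486, 5 of the 38 genes were higher in the PBMC-hCG group and none was lower, where 7.61% of all genes were higher and 5.99% lower. These were Tap1, Tapbp, Psmb8, H2-T10 and H2-T22, that is 3 of 7 class I machinery genes and 2 of 18 class I H2 genes, with none of the 10 class II genes. Log2 fold changes were positive in 36 of the 38 genes, with a median of 0.28. Over all tested genes, 10600 of 18706 were positive, with a median of 0.05. Several members varied together from mouse to mouse, so these signs are not independent of each other. Of 18 class I H2 genes, all 18 had positive values with a median of 0.28, and the class II median was 0.21. In B2m, Psmb8 and Psmb9, all PBMC-hCG mice lay above all IF mice, where 5.05% of all genes did so. None of the 38 was a DEG, against 2.31% of all genes. The 5 calls were lost together when IF replicate 2, 4 or 5 or PBMC-hCG replicate 2, 3, 4 or 5 was left out, and so were nearly all calls of the genome, which went from 2544 genes to between 0 and 34. All 5 were also lost when every gene above 0 TPM in at least 1 library was tested. Without IF replicate 3, 11 of the 38 genes were called and 5061 in all.

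In the IF group, 1 of the 38 genes, H2-T-ps, was higher than in the control group at an adjusted p-value under 0.05 and none was lower, where 13.4% of all genes were higher and 8.53% lower. By raw p-value under 0.05, 4 of the 38 genes were called, against 33.9% of all genes. None met the DEG criteria, which 4.03% of all genes met, and in none did all IF mice lie above all control mice, as 8.55% of all genes did. The class II genes had negative log2 fold changes in 9 of 10 genes, with a median of -0.17, and none passed the test. Of all 18706 tested genes, 8724 were negative. For class I H2 genes the median was 0.01, and over all tested genes 0.02. Several class II genes varied together from mouse to mouse, so their signs are not independent of each other. Control replicate 2 was the highest of all mice in 7 of the 10. Without it, log2 fold changes went from -0.25 to -0.09 for H2-Aa, -0.26 to -0.11 for H2-Ab1 and -0.22 to -0.05 for H2-Eb1. None of the 38 was called when control replicate 1, 3 or 4 or IF replicate 3 or 5 was left out. In those refits 3323 to 3783 of all genes were called, against 4104 with every mouse in. Without control replicate 2, 2 of the 38 were called and 5012 of all genes.

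PBMCs cultured without hCG gave no call. Between the PBMC and IF groups, limma called none of the 38 genes higher or lower (0% and 0% of all genes), none had a raw p-value under 0.05 (6.79% of all genes), none was a DEG (0.438% of all genes), and in none did the PBMC mice lie entirely above the IF mice (0.577% of all genes). Log2 fold changes were positive in all 10 class II genes, with a median of 0.22, and in all 9 machinery genes, with a median of 0.18. Over all tested genes, 10370 of 18706 were positive, with a median of 0.02. Several of the members varied together from mouse to mouse, so their signs are not independent of each other. Between the PBMC-hCG and PBMC groups, limma called none of the 38 genes, where 0.00535% of all genes were higher and 0.00535% lower. By raw p-value under 0.05, Tap1, Tapbp, H2-T-ps, H2-T22 and H2-T24 were called, all with higher values in the PBMC-hCG group, which is 5 of 38 genes against 16.2% of all genes in either direction, none was a DEG (0.893% of all genes), and B2m was the single gene without overlap (1.99% of all genes). All 18 class I H2 genes had positive values there, with a median of 0.31, and the class II median was 0.01. Of all 18706 tested genes, 10202 were positive there, with a median of 0.02. The comparisons share mice, since the IF group stands in 3 of them and the PBMC-hCG group in 3, so their fold changes are not independent of each other.

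**Figure D1:**
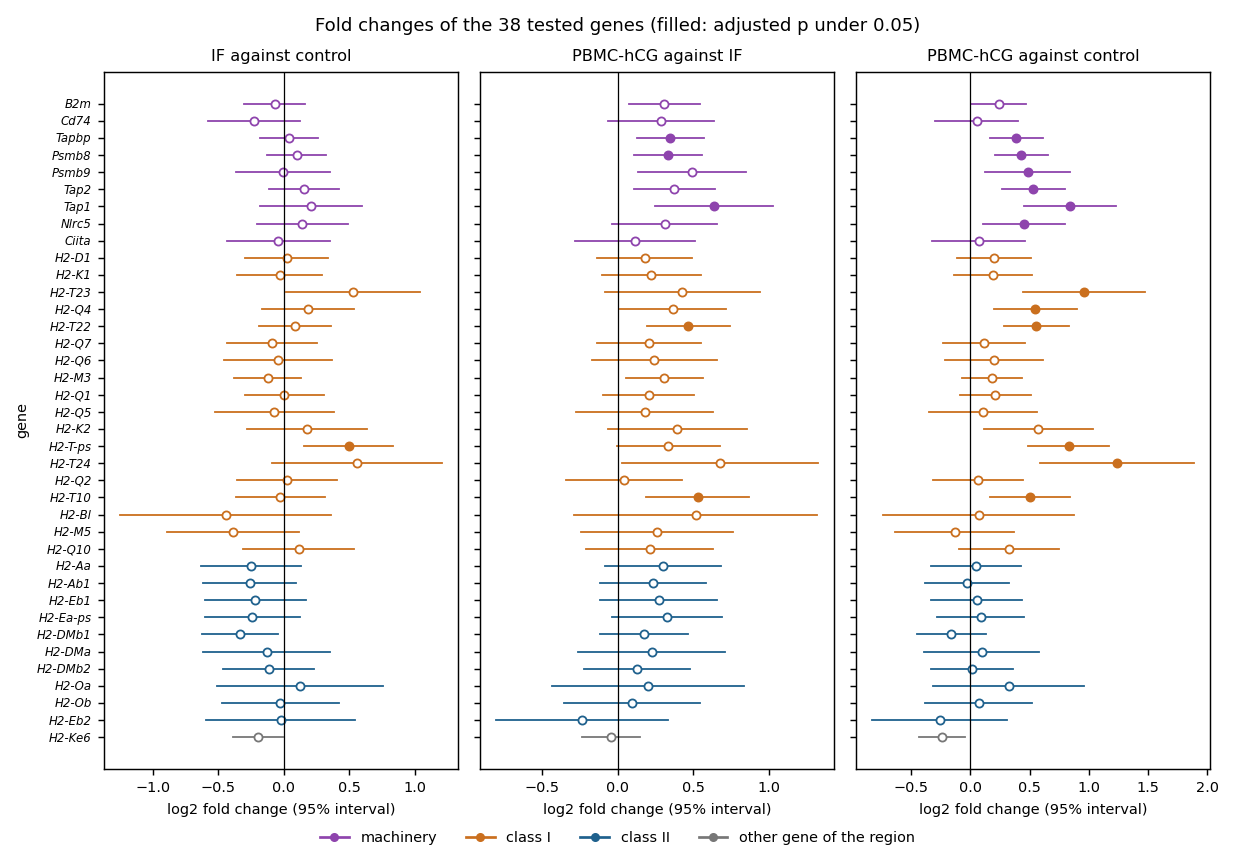
Log2 fold changes of the 38 tested genes with 95% intervals (horizontal axis, log2(TPM + 0.1) scale) in 3 comparisons, in colours for machinery, class I, class II and the other gene of the region; filled points had an adjusted p-value under 0.05. The filled points are 1 in IF against control, 5 in PBMC-hCG against IF and 12 in PBMC-hCG against control, and no class II gene is among them.

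Tap1, the first subunit of the peptide transporter, changed most within the class I machinery. It stood at 40.0, 36.9, 32.5, 30.0 and 28.4 TPM in the control mice and at 39.8, 38.4, 49.5, 39.0 and 28.5 TPM in the IF mice. The PBMC mice had 38.9, 48.9, 37.9, 74.4 and 32.8 TPM and the PBMC-hCG mice 48.0, 66.7, 71.4, 65.3 and 51.5 TPM. All PBMC-hCG mice lay above all control mice, 4 of them also above all IF mice, and the highest value of all was that of PBMC replicate 4. Tap1 was 1.79-fold higher in the PBMC-hCG than in the control group (log2 fold change 0.84, SE 0.19, limma adjusted p = 0.00229) and 1.55-fold higher than in the IF group (0.64, SE 0.19, adjusted p = 0.0379). From PBMC to PBMC-hCG its log2 fold change was 0.42 (95% interval 0.03 to 0.81, adjusted p = 0.293).

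Tap2, the second subunit, moved less. Control mice had 54.4, 58.3, 53.2, 48.2 and 46.2 TPM and IF mice 58.3, 60.1, 71.0, 58.9 and 44.1 TPM. In the PBMC group it was 65.9, 67.2, 56.9, 81.3 and 47.0 TPM, and in the PBMC-hCG group 68.0, 77.5, 81.5, 81.1 and 68.4 TPM. The PBMC-hCG mice were again above every control mouse, while IF replicate 3 reached into their range. The log2 fold change against control was 0.53 (SE 0.13, limma adjusted p = 0.00414), and that against IF, 0.38 (SE 0.13), had an adjusted p of 0.0548.

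Tapbp, which encodes tapasin, had 146, 161, 144, 142 and 136 TPM in control mice and 155, 145, 185, 146 and 123 TPM in IF mice. PBMC mice had 157, 165, 149, 196 and 136 TPM and PBMC-hCG mice 163, 202, 204, 219 and 171 TPM. The lowest PBMC-hCG value lay just above the highest control value, and IF replicate 3 overlapped with the PBMC-hCG group. Tapbp was 1.31-fold higher than in control (log2 fold change 0.39, SE 0.11, limma adjusted p = 0.00932) and 1.27-fold higher than in IF (0.35, SE 0.11, adjusted p = 0.0409).

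The immunoproteasome subunit Psmb8 stood at 116, 101, 110, 103 and 82.3 TPM in control mice and at 108, 112, 116, 119 and 92.8 TPM in IF mice. It was 103, 120, 110, 156 and 109 TPM in the PBMC group and 125, 146, 149, 144 and 125 TPM in the PBMC-hCG group. No control or IF mouse reached the PBMC-hCG values, whereas PBMC replicate 4 exceeded them. Log2 fold changes were 0.43 against control (SE 0.11, limma adjusted p = 0.00528) and 0.33 against IF (SE 0.11, adjusted p = 0.0479), and the second call was lost also without a variance trend and with median-ratio scaling.

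Its partner Psmb9 had 69.7, 69.5, 55.0, 52.6 and 41.5 TPM in control mice and 64.2, 58.8, 64.2, 54.2 and 43.2 TPM in IF mice. Values were 59.1, 68.6, 61.9, 106 and 49.1 TPM in the PBMC group and 72.1, 87.0, 83.9, 78.9 and 75.1 TPM in the PBMC-hCG group. As in Psmb8, the PBMC-hCG mice lay above all control and IF mice and below PBMC replicate 4. Psmb9 was 1.40-fold higher than in control (log2 fold change 0.48, SE 0.17, limma adjusted p = 0.0378), a call that was lost without control replicate 3, 4 or 5 or PBMC-hCG replicate 2, 3, 4 or 5. Against IF its log2 fold change was 0.49 (SE 0.17, adjusted p = 0.0595).

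B2m, the light chain, is the most abundant of the group. Control mice had 1594, 2035, 1450, 1271 and 1168 TPM and IF mice 1531, 1267, 1572, 1325 and 1358 TPM. PBMC mice had 1533, 1499, 1518, 1587 and 1431 TPM and PBMC-hCG mice 1692, 1897, 1594, 1885 and 1661 TPM. The PBMC-hCG mice were above all IF and all PBMC mice, by a narrow margin over the PBMC mice (1594 against 1587 TPM), and control replicate 2 was above them all. The log2 fold change was 0.31 against IF (SE 0.11, limma adjusted p = 0.065) and 0.24 against control (SE 0.11, adjusted p = 0.11). Without control replicate 2 the second was 0.36 with an adjusted p of 0.00357, and without IF replicate 3 the first was 0.35 with an adjusted p of 0.0372.

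Nlrc5, the class I transactivator, was a low transcript. It stood at 8.03, 6.14, 6.07, 6.77 and 4.17 TPM in control mice and at 7.02, 6.37, 8.53, 7.15 and 5.13 TPM in IF mice. The PBMC group had 7.40, 7.73, 6.53, 10.8 and 6.39 TPM and the PBMC-hCG group 8.35, 9.46, 8.51, 7.86 and 7.88 TPM. Control replicate 1 overlapped with the PBMC-hCG mice and the other 4 control mice did not. Its log2 fold change against control, 0.45 (SE 0.17), passed with a limma adjusted p of 0.0445 and was kept with control replicate 1 left out but with no other mouse left out, where adjusted p-values reached 0.137.

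**Figure D2:**
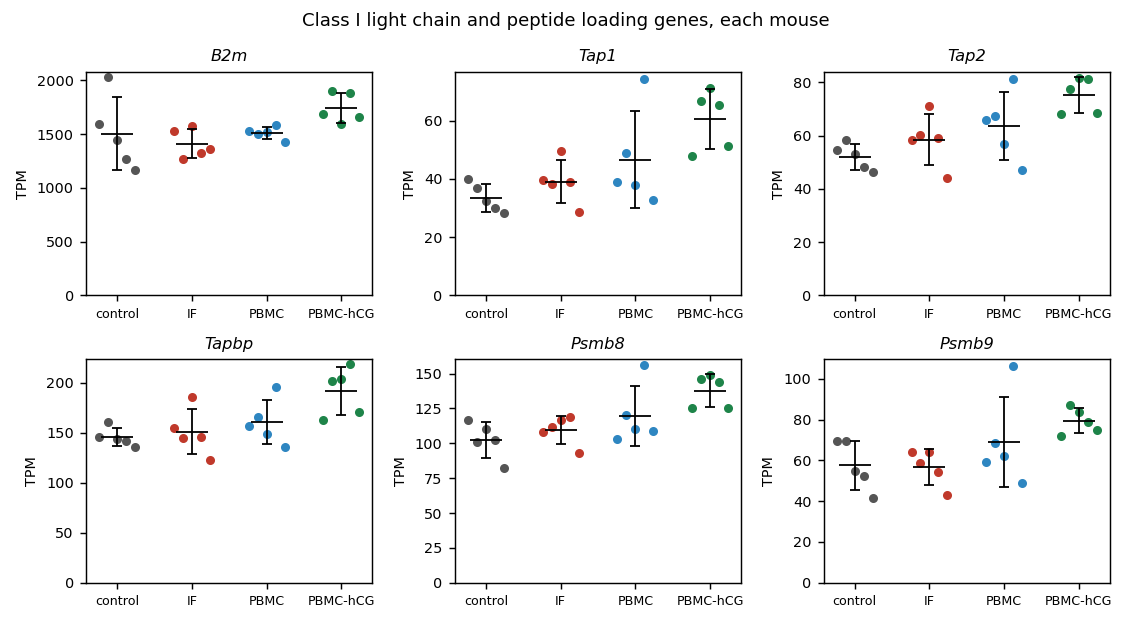
TPM (vertical axes, from 0) of the light chain B2m and 5 genes of peptide supply and loading in each of the 5 mice per group; lines and bars are means and SD. Tap1, Tap2, Tapbp, Psmb8 and Psmb9 lie higher in all PBMC-hCG mice than in all control mice, as do 13.2% of all genes. PBMC replicate 4 is the highest PBMC mouse in each panel.

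Among the class I heavy chains, the classical genes H2-K1 and H2-D1 were called in no comparison. H2-K1 had 571, 929, 489, 432 and 432 TPM in control mice and 567, 474, 659, 481 and 508 TPM in IF mice. It had 527, 567, 538, 580 and 503 TPM in PBMC mice and 619, 703, 536, 661 and 606 TPM in PBMC-hCG mice. Below control replicate 2, the highest values were 703 and 661 TPM in PBMC-hCG mice and 659 TPM in IF replicate 3. The log2 fold change against control was 0.19 (95% interval -0.14 to 0.52, limma adjusted p = 0.381), and without control replicate 2 it was 0.38 with an adjusted p of 0.00639. Against IF it was 0.22 (95% interval -0.11 to 0.55, adjusted p = 0.322).

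H2-D1 varied with H2-K1 from mouse to mouse. The control group had 769, 1283, 707, 606 and 617 TPM and the IF group 812, 686, 963, 700 and 749 TPM. The PBMC group had 788, 820, 778, 848 and 727 TPM and the PBMC-hCG group 887, 952, 789, 950 and 824 TPM. Groups overlapped throughout. Against control the log2 fold change was 0.20 (95% interval -0.12 to 0.52, limma adjusted p = 0.333), which became 0.39 with an adjusted p of 0.00379 without control replicate 2.

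H2-T23, the Qa-1 gene, had more transcripts in PBMC-hCG than in control mice. Control mice had 118, 271, 114, 97.9 and 108 TPM and IF mice 183, 154, 323, 160 and 166 TPM. In PBMC mice it was 167, 186, 162, 246 and 159 TPM, and in PBMC-hCG mice 214, 280, 250, 339 and 211 TPM. Control replicate 2 lay among the PBMC-hCG mice, and the other 4 control mice lay below every mouse that had received RU486. The gene was 1.94-fold higher in the PBMC-hCG than in the control group (log2 fold change 0.96, SE 0.24, limma adjusted p = 0.00619). Between IF and control the value was 0.53 (SE 0.24, limma adjusted p = 0.134). It was 0.79 with an adjusted p of 0.0047 without control replicate 2, and 0.34 with an adjusted p of 0.331 without IF replicate 3.

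H2-T24, another gene of the T region, had the largest fold change of the 38 genes against control. It stood at 5.999, 12.3, 6.67, 4.72 and 5.72 TPM in control mice and at 8.01, 7.13, 22.8, 9.42 and 7.73 TPM in IF mice. PBMC mice had 8.37, 9.09, 7.76, 11.4 and 7.55 TPM and PBMC-hCG mice 12.4, 18.0, 16.2, 28.0 and 9.98 TPM. Control replicate 2 and IF replicate 3 were at the level of the PBMC-hCG group, and PBMC-hCG replicate 5 was within the PBMC range. The fold change against control was 2.36 (log2 fold change 1.24, SE 0.31, limma adjusted p = 0.00558). Against PBMC the log2 fold change was 0.86 (95% interval 0.21 to 1.51, adjusted p = 0.281).

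H2-T22, whose product can be bound by gamma delta T cells, had 76.6, 98.0, 69.8, 66.0 and 65.4 TPM in control mice and 83.6, 75.8, 102, 74.6 and 63.8 TPM in IF mice. It was 84.0, 92.8, 81.0, 105 and 69.5 TPM in the PBMC group and 94.1, 121, 114, 118 and 101 TPM in the PBMC-hCG group. Only control replicate 2 among the control mice, and IF replicate 3 among the IF mice, reached the PBMC-hCG values. Log2 fold changes were 0.55 against control (SE 0.13, limma adjusted p = 0.00372) and 0.47 against IF (SE 0.13, adjusted p = 0.0345).

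H2-T10, its close relative, had 8.53, 9.78, 6.995, 7.14 and 7.38 TPM in control mice and 9.09, 6.62, 10.7, 7.80 and 5.62 TPM in IF mice. The PBMC mice had 9.54, 10.3, 9.07, 10.8 and 6.42 TPM and the PBMC-hCG mice 9.46, 11.7, 12.0, 11.6 and 11.6 TPM. All PBMC-hCG mice but replicate 1 were above every mouse of the other groups. Log2 fold changes were 0.50 against control (SE 0.16, limma adjusted p = 0.0235) and 0.53 against IF (SE 0.16, adjusted p = 0.0414), and the first was lost without control replicate 3, 4 or 5 or PBMC-hCG replicate 3 (adjusted p up to 0.0563). H2-T10 is a transcribed pseudogene in RefSeq and shares 31.7% of its 50-base words with H2-T22, so reads of this pair may have been divided between them and their values are uncertain.

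H2-T-ps, a T region gene with a pseudogene's name, was the single gene called between IF and control. It had 7.40, 11.4, 7.54, 6.42 and 6.76 TPM in control mice and 10.6, 9.54, 14.0, 10.3 and 10.8 TPM in IF mice. PBMC mice had 10.6, 11.2, 9.77, 12.0 and 10.4 TPM and PBMC-hCG mice 13.6, 14.9, 13.7, 19.1 and 9.55 TPM. Apart from control replicate 2, the control mice were below all mice of the other groups. The log2 fold change of IF against control was 0.50 (SE 0.16, limma adjusted p = 0.035), which was lost without control replicate 1, 3, 4 or 5 or IF replicate 1, 3 or 5 (adjusted p up to 0.0929), and that of PBMC-hCG against control was 0.83 (SE 0.16, adjusted p = 0.000924). H2-T-ps shares 18% of its 50-base words with H2-T23, so its values are not free of reads of that gene.

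H2-Q4, a heavy chain of the Q region, had 143, 201, 116, 102 and 102 TPM in control mice and 149, 125, 209, 128 and 132 TPM in IF mice. It was 143, 158, 145, 183 and 127 TPM in PBMC mice and 173, 214, 168, 198 and 188 TPM in PBMC-hCG mice. Control replicate 2, IF replicate 3 and PBMC replicate 4 lay within the PBMC-hCG range. Its log2 fold change was 0.55 against control (SE 0.17, limma adjusted p = 0.0183) and 0.36 against IF (SE 0.17, adjusted p = 0.13), and the first was lost without control replicate 4 or 5 (adjusted p up to 0.0564). The transcripts of H2-Q4 share 21.8% of their 50-base words with other genes, most of all H2-Q6.

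**Figure D3:**
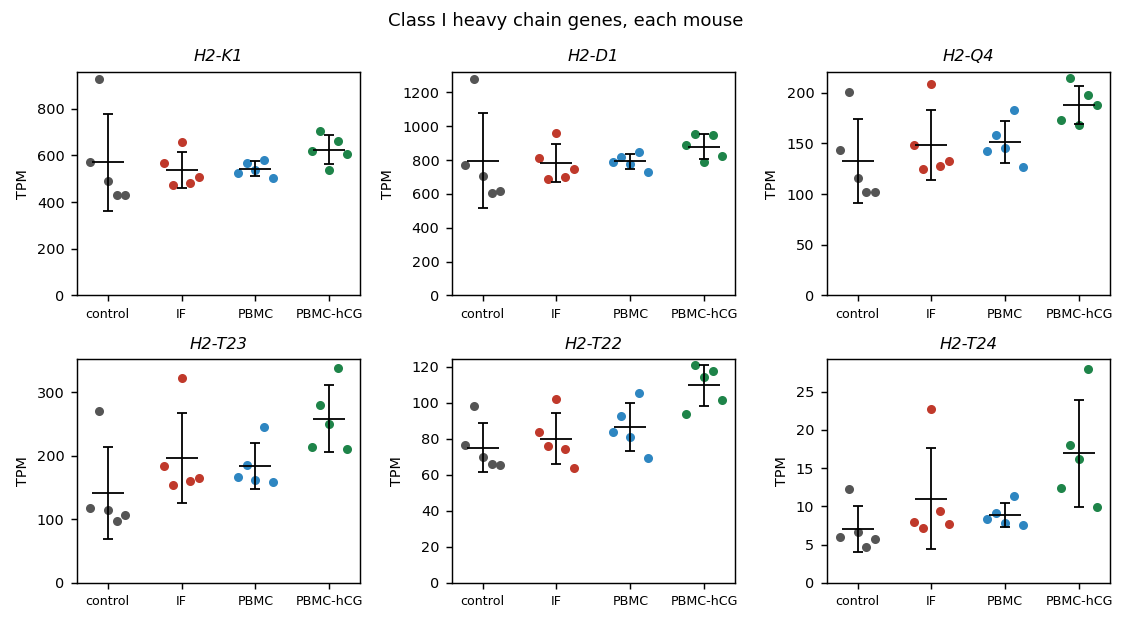
TPM (vertical axes, from 0) of 6 class I heavy chain genes in each of the 5 mice per group; lines and bars are means and SD. Control replicate 2 is the highest control mouse in each panel and IF replicate 3 the highest IF mouse, and H2-T23 in the other control mice, at 97.9 to 118 TPM, is below all mice of the other groups.

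The other 10 tested class I genes passed in no comparison. Their means over the 20 mice were 71.1 TPM for H2-Q7, 68.4 for H2-Q6, 24.4 for H2-M3, which presents formylated peptides, 23.5 for H2-Q1, 18.2 for H2-Q5, 15.4 for H2-K2, 9.57 for H2-Q2, 3.24 for H2-Bl, 1.79 for H2-M5 and 1.74 for H2-Q10. Nearest to a call was H2-K2, a transcribed pseudogene, at 9.07 to 24.8 TPM in control and 16.8 to 20.6 TPM in PBMC-hCG mice (log2 fold change 0.57, limma adjusted p = 0.0537). H2-M3 had 16.9 to 27.3 TPM in IF and 23.6 to 31.0 TPM in PBMC-hCG mice (limma adjusted p = 0.086). Several are near copies of each other, with 36.4% of the 50-base words of H2-Q5, 32% of those of H2-Q6 and 26.4% of those of H2-Q7 found in other genes, and their levels are uncertain.

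Within a mouse, some class I genes kept a fixed proportion and others did not. H2-D1 and H2-K1 held a ratio of 1.35 to 1.50 in all 20 mice. The ratio of H2-T23 to H2-K1 was 0.207 to 0.291 in the control group, 0.324 to 0.489 in the IF group, 0.301 to 0.423 in the PBMC group and 0.346 to 0.512 in the PBMC-hCG group. No control mouse, replicate 2 included, reached the ratio of any mouse that had received RU486. Tap1 to H2-K1 was at most 0.0701 in the control group and at least 0.0774 in the PBMC-hCG group, with the IF group at 0.0561 to 0.0811 and the PBMC group at 0.0653 to 0.128. These ratios were chosen after their values were seen and were not tested.

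Class II genes were called in no comparison. H2-Aa, the alpha chain of the I-A molecule, had 425, 562, 319, 315 and 242 TPM in control mice and 403, 266, 339, 268 and 250 TPM in IF mice. It had 363, 347, 387, 403 and 271 TPM in PBMC mice and 439, 361, 309, 384 and 365 TPM in PBMC-hCG mice. All 4 groups overlapped, and the control group alone held both the lowest and the highest value. Log2 fold changes were -0.25 for IF against control (95% interval -0.63 to 0.13, limma adjusted p = 0.366), 0.30 for PBMC-hCG against IF (-0.08 to 0.68, adjusted p = 0.249) and 0.05 for PBMC-hCG against control (-0.33 to 0.43, adjusted p = 0.867). Without control replicate 2 the first was -0.09 (limma adjusted p = 0.736) and the last 0.21 (adjusted p = 0.312).

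H2-Ab1, the beta chain of the same molecule, had 396, 486, 285, 284 and 226 TPM in control mice and 346, 241, 294, 250 and 231 TPM in IF mice. The PBMC mice had 343, 320, 337, 368 and 239 TPM and the PBMC-hCG mice 365, 297, 283, 329 and 316 TPM. H2-Ab1 varied with H2-Aa from mouse to mouse, and the ratio of H2-Aa to H2-Ab1 was 1.06 to 1.21 in the 20 mice. Between PBMC-hCG and control the log2 fold change of H2-Ab1 was -0.03 (95% interval -0.38 to 0.33, limma adjusted p = 0.917). Without control replicate 2 it was 0.12 (limma adjusted p = 0.56).

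H2-Eb1, the beta chain of the I-E molecule, had 245, 334, 185, 178 and 145 TPM in control mice and 238, 157, 195, 167 and 150 TPM in IF mice. It had 222, 208, 237, 252 and 160 TPM in PBMC mice and 260, 201, 182, 229 and 214 TPM in PBMC-hCG mice. Again the groups overlapped, with a log2 fold change of 0.27 for PBMC-hCG against IF (95% interval -0.12 to 0.66, limma adjusted p = 0.302). Against control it was 0.05 (limma adjusted p = 0.857), and 0.22 without control replicate 2 (adjusted p = 0.283). H2-Ea-ps, the I-E alpha chain gene, had 78.6 to 165 TPM, and the ratio of H2-Eb1 to it was 1.71 to 2.11.

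Cd74, the invariant chain, had 741, 926, 587, 566 and 427 TPM in control mice and 690, 462, 580, 509 and 468 TPM in IF mice. PBMC mice had 703, 636, 662, 721 and 470 TPM and PBMC-hCG mice 760, 646, 582, 662 and 625 TPM. Its ratio to H2-Aa was 1.65 to 1.94, so Cd74 varied from mouse to mouse with the chain it escorts. The log2 fold change was 0.28 for PBMC-hCG against IF (95% interval -0.07 to 0.63, limma adjusted p = 0.23) and 0.06 against control (-0.29 to 0.41, adjusted p = 0.829). Without control replicate 2 the second was 0.20 (limma adjusted p = 0.318).

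Ciita, the class II transactivator, had 6.71, 7.22, 4.99, 5.13 and 3.78 TPM in control mice and 6.67, 5.23, 5.15, 4.89 and 4.59 TPM in IF mice. It had 6.67, 6.25, 6.30, 8.03 and 3.92 TPM in PBMC mice and 7.20, 4.60, 5.16, 6.10 and 5.78 TPM in PBMC-hCG mice. As in the class II chains, no group stood apart from another. Log2 fold changes lay between -0.09 and 0.20 over the 5 comparisons, with 95% intervals that reached no further than -0.48 and 0.60.

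The peptide editors H2-DMa, H2-DMb1 and H2-DMb2 had means of 18.2, 20.7 and 11.6 TPM, and their inhibitors H2-Oa and H2-Ob, which are typical of B cells and some dendritic cells, 4.67 and 3.21 TPM. H2-Eb2 was near 0, at 0.1003 to 0.452 TPM. The nearest to a call was H2-DMb1, lower in IF (16.1 to 23.4 TPM) than in control mice (20.3 to 30.0 TPM) with a log2 fold change of -0.33 and a limma adjusted p of 0.093. H2-DMb1 and H2-DMb2 share 22.7% and 24.8% of their 50-base words with other genes, and so are not fully apart. H2-Ke6, the metabolic gene of the region, had 45.3 to 66.5 TPM in control and 40.9 to 52.9 TPM in PBMC-hCG mice (log2 fold change -0.24, limma adjusted p = 0.0542).

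**Figure D4:**
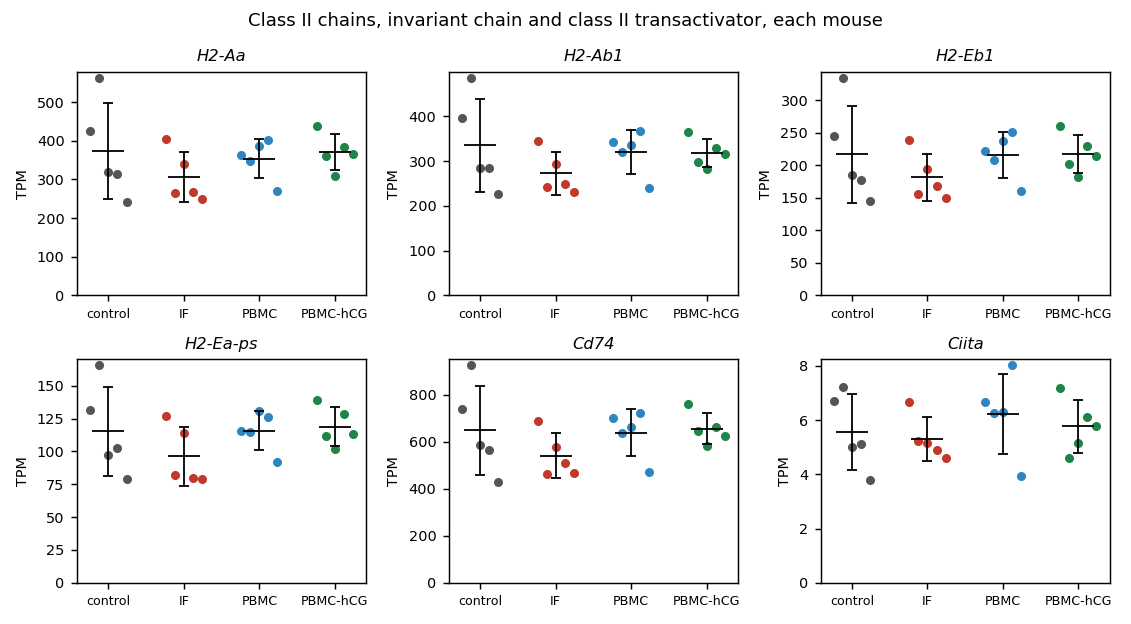
TPM (vertical axes, from 0) of 4 class II chain genes, the invariant chain Cd74 and the class II transactivator Ciita in each of the 5 mice per group; lines and bars are means and SD. The groups overlap in every panel, and control mice span 242 to 562 TPM in H2-Aa.

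Other genes of the pathways gave calls in both directions in the same limma fit (adjusted p-value under 0.05). Of all genes, 13.4% were higher and 8.53% lower in IF than in control. In PBMC-hCG, 7.61% were higher and 5.99% lower than in IF, and 20.2% higher and 11.6% lower than in control. Of 13 further genes of the class I pathway and related class I-like molecules, 2 were higher in IF than in control, Fcgrt (the neonatal Fc receptor, log2 fold change 0.53) and Sppl2a (0.24), a protease listed with them that is known for cutting the remnant of Cd74. In PBMC-hCG against IF, 2 of 13 were higher, the lipid-presenting Cd1d1 (0.53) and the metabolite-presenting Mr1 (0.49), and 2 were lower, the chaperones of the loading complex Calr (-0.58) and Pdia3 (-0.41). Against control, 6 of 13 were higher in PBMC-hCG, of which Fcgrt (0.78), Hfe (0.38), a partner of B2m in iron control, and Tapbpl (0.38), a tapasin relative, changed most. The 3 lower ones were Calr (-0.75), Pdia3 (-0.48) and the chaperone Canx (-0.40). The interferon-inducible Irf1 rose against control by 0.48, among 6 of 13 genes of the transcription factor and interferon-gamma receptor list that were higher. Of this list, 4 were higher in IF than in control, led by Irf8 (0.35), and 1 was lower, Ifngr2 (-0.17), which was the single gene higher in PBMC-hCG than in IF (0.22).

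Of 9 further class II pathway genes, 2 were higher in IF than in control (13.4% of all genes). They were the costimulator Cd80 (log2 fold change 0.72) and the lysosomal protease Lgmn (0.52). None was called in PBMC-hCG against IF, where 1 of 9 had a raw p-value under 0.05 in limma's test, against 35% of all genes. Against control, 3 of 9 were higher in PBMC-hCG (20.2% of all genes). They were the costimulator Cd86 (0.42), Lgmn (0.40) and the protease Ctss (0.37), which trims the invariant chain. In PBMC against IF and in PBMC-hCG against PBMC, limma called none of these 3 lists' genes, and by raw p-value under 0.05 it gave 1 gene in the first comparison (6.79% of all genes) and 3 in the second (16.2% of all genes).

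Some markers of the cell types that the tissue holds were called as well, in several lists at no more than the share of all genes. Of all genes, 20.2% were higher in PBMC-hCG than in control, 13.4% in IF than in control and 7.61% in PBMC-hCG than in IF. The 3 pan-leukocyte markers summed to 190 to 235 TPM in control, 243 to 277 in IF, 215 to 290 in PBMC and 226 to 301 in PBMC-hCG mice, and 3 of 3 were higher in PBMC-hCG than in control, 2 of 3 in IF than in control and 0 of 3 in PBMC-hCG than in IF. T cell and NK cell markers summed to 117 to 141, 119 to 189, 139 to 190 and 158 to 203 TPM in the same order, with 5 of 12 higher in PBMC-hCG than in control, 1 of 12 in IF than in control and 0 of 12 in PBMC-hCG than in IF. Dendritic cell and macrophage markers summed to 903 to 1079, 913 to 1107, 987 to 1078 and 911 to 1313 TPM, with 2 of 14 higher in PBMC-hCG than in control, Csf1r and Adgre1, 3 of 14 in IF than in control and 0 of 14 in PBMC-hCG than in IF. B cell markers summed to at most 11.9 TPM in any mouse, and Ms4a1 and Pax5 were listed at 0 in 6 and 5 libraries, and none of the 4 tested ones was called. The part of these cells in the class I calls was not tested.

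Some markers of the structural tissues were also called between PBMC-hCG and control, where 20.2% of all genes were higher and 11.6% lower. Markers of the uterine epithelium, the tissue that lines the lumen and glands, summed to 485 to 835 TPM in control and 786 to 1051 TPM in PBMC-hCG mice, with 4 of 7 higher and 1 lower. Stromal markers summed to 3723 to 4013 and 5551 to 6518 TPM, with 2 of 6 higher and 3 lower, and myometrial markers to 5900 to 11100 and 4806 to 6039 TPM, with 0 of 6 higher and 5 lower. Between IF and control, 5 of 7 epithelial markers were higher and 1 lower, where 13.4% of all genes were higher and 8.53% lower. There 1 of 6 stromal markers was higher and 2 lower, and 0 of 6 myometrial markers were higher and 1 lower. Epithelial, stromal and myometrial sums were 718 to 908, 4458 to 5803 and 5950 to 7431 TPM in IF mice. In PBMC mice they were 759 to 951, 5033 to 5991 and 5795 to 7130 TPM. In PBMC-hCG against IF, 1 of 7 epithelial markers (Krt8), 2 of 6 stromal markers (Hoxa10 and Pdgfra) and 0 of 6 myometrial markers were higher and none was lower. Of all genes, 7.61% were higher there and 5.99% lower. The part of tissue makeup in the class I calls was not tested. Summed class I H2 genes were 1501 to 3183 TPM in control, 1732 to 2603 in IF, 1787 to 2231 in PBMC and 2127 to 2608 in PBMC-hCG mice, and summed class II H2 genes were 736 to 1633, 754 to 1178, 808 to 1219 and 932 to 1274 TPM. In both sums the groups overlapped.

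**Figure D5:**
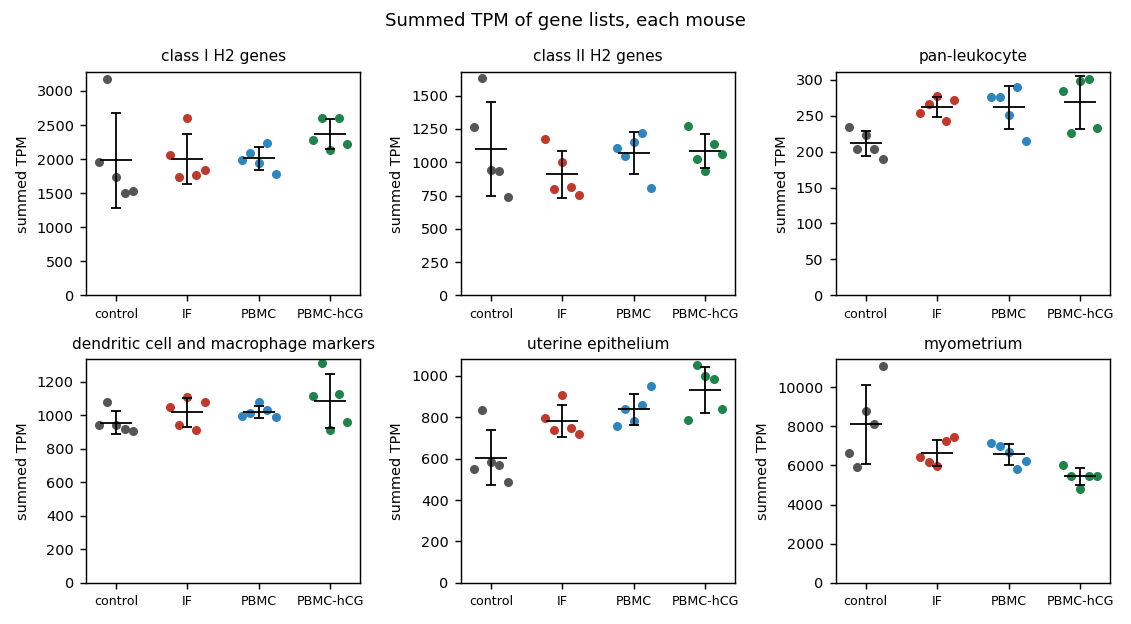
Summed TPM (vertical axes, from 0) of class I and class II H2 genes and of 4 marker lists in each of the 5 mice per group; lines and bars are means and SD. The class I sum of the PBMC-hCG mice lies at 2127 to 2608 TPM, and their myometrial sum of 4806 to 6039 TPM overlaps that of the lowest control mouse.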

How the data were processed

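Groups and replicate numbers came from the sample labels. The authors deposited TPM values, made per the paper's methods by trimming with Trimmomatic, alignment to mm10 with HISAT2 and assembly with StringTie, from stranded mRNA libraries. The authors tested counts with edgeR, which TPM do not allow. Here log2(TPM + 0.1) of the 18706 genes above 0 TPM in all 20 libraries was fitted with limma 3.58.1 (R 4.3.3) with all 4 groups and a variance trend, and each comparison's p-values were given the Benjamini-Hochberg adjustment. The pseudocount draws fold changes of low genes toward 0. Replicates are separate mice. Python 3.11.15 with matplotlib 3.10.9 drew the figures.

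The members and gene lists were chosen with earlier results of these data known. Values are given for each mouse for the classical chains, the 9 machinery genes and every other member with an adjusted p-value under 0.05 or meeting the DEG criteria in any comparison, which makes 20 members, and the other 18 tested members are given by their range or mean. Other pathway genes were those with an adjusted p-value under 0.05, up to 5 per comparison by size.

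Positions and promoters are from RefSeq on GRCm38.p6, which matched all 50 members, with a promoter for 37. Shared words are the 50-base words of a gene's GENCODE transcripts found in transcripts of other genes. The fit was tested on simulated data. Alternatives were another pseudocount, filter, scaling, trend, fit and fold threshold, a replicate block, and each mouse left out.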

Additional observations from a re-analysis of the deposited data

Results flagged for a closer look

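In groups of 5 mice, the highest or lowest value of a named gene was compared with its nearest neighbour by Dixon's ratio, with a critical value of 0.71. Of 80 groups, 10 were flagged, with ratios between 0.713 and 0.883, and chance flags about 1 in 20 groups. Control replicate 2 gave 5 of the 10, at 929 TPM for H2-K1, 1283 TPM for H2-D1, 271 TPM for H2-T23, 12.3 TPM for H2-T24 and 11.4 TPM for H2-T-ps, each far above the other control mice, whose highest values were 571, 769, 118, 6.67 and 7.54 TPM. IF replicate 3 gave 4, at 323 TPM for H2-T23, 22.8 TPM for H2-T24, 209 TPM for H2-Q4 and 14.0 TPM for H2-T-ps, where the next IF mouse had 183, 9.42, 149 and 10.8 TPM. The last was PBMC-hCG replicate 1, which at 9.46 TPM for H2-T10 was below the other PBMC-hCG mice, the next of which had 11.6 TPM. The same 2 mice give most of these values, and their genes lie close together on chromosome 17, so the flags are not independent of each other. Both mice also had the highest epithelial and the lowest myometrial marker sums of their groups. These were 835 and 5900 TPM in control replicate 2 and 908 and 5950 TPM in IF replicate 3. The part of tissue makeup in the flags was not tested.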

How the results depend on the processing

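The count of members called in IF against control went from 1 to 0 without the filter on genes above 0 TPM in all libraries, with median-ratio scaling and in a fit on the 2 groups alone, and that of DEGs from 0 to 1 without the filter. In PBMC-hCG against IF, the 5 calls became 0 without the filter, 3 without a variance trend and 8 with a replicate block, and DEGs went from 0 to 2 at a fold of at least 1.5. In PBMC-hCG against PBMC, DEGs went from 0 to 1 at that fold. In PBMC-hCG against control, the single DEG became 2 without the filter, 2 with quantile normalization and 4 at a fold of at least 1.5. With each mouse left out, calls ranged from 0 to 2 in IF against control, 0 to 11 in PBMC-hCG against IF, 0 to 0 in PBMC against IF and in PBMC-hCG against PBMC, and 8 to 16 in PBMC-hCG against control. Over all genes, these refits called 3323 to 5012 genes in IF against control and 0 to 5061 in PBMC-hCG against IF. They called 0 to 2 in PBMC against IF, 2 to 7 in PBMC-hCG against PBMC and 4756 to 7513 in PBMC-hCG against control. DEGs ranged from 0 to 1 in PBMC-hCG against PBMC (1 without PBMC-hCG replicate 5) and from 1 to 2 in PBMC-hCG against control (2 without control replicate 2 or PBMC-hCG replicate 1 or 5), and stayed at 0 in the other 3. The cause of these moves was not tested. Fold changes of the 20 named genes kept their side of the threshold in 875 of 900 refits under other settings and in 925 of 1000 with a mouse left out. No called value changed sign. Most of these values were not called in the main fit, so the counts mainly describe uncalled values that stayed uncalled. With each of 10 mice left out in turn, H2-T-ps in IF against control kept its call in 3 refits. In PBMC-hCG against IF, Tap1, Tapbp, H2-T10 and H2-T22 kept theirs in 3 and Psmb8 in 2. Against control, Tap1, Tap2, Tapbp, Psmb8, H2-T-ps, H2-T22, H2-T23 and H2-T24 were called with each of the 10 mice left out in turn, H2-Q4 with 8 of 10, H2-T10 with 6, Psmb9 with 3 and Nlrc5 with 1. Nlrc5 and Psmb9 also lost that call without the filter and with quantile or median-ratio scaling. In PBMC-hCG against IF, H2-T10 and Tapbp lost theirs in a fit on the 2 groups, Tapbp and Psmb8 without a variance trend and Psmb8 with median-ratio scaling. Deviations from the group means were compared between mice of different groups that share a replicate number. Their correlations were -0.247 to 0.457 in 30 pairs, with a median of -0.0097, and the median for other numbers was 0.00883. No pairing by number was seen in the median, which cannot exclude it for single pairs. The replicate block is therefore given as a value only. Other scalings moved the median fold change of all genes by under 0.1 on the log2 scale. TPM keep no read depth, so no detection limit could be given.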
